A study of Mus musculus with 9 samples.

Results

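The Tudor domain proteins of the male germ line were followed at the RNA level in whole testes of 3-week-old mice. The group held 10 genes, Tdrd1, Tdrd3, Tdrd5, Tdrd6, Tdrd7, Tdrd9, Tdrd12, Tdrkh, Rnf17 and Stk31, chosen by symbol from the 22337 genes of the deposited table, and all 10 were found and passed the filter on low counts. The study compared wild-type mice (WT-WT in the labels), mice with 1 Piwil4 allele carrying the R264W change (WT-KI, Piwil4 WT/R264W) and mice with both alleles changed (KI-KI, Piwil4 R264W/R264W), with 3 testis libraries of each genotype. The allele was made with CRISPR-Cas9 in C57BL/6 zygotes, it replaces an arginine in the piRNA-binding PAZ domain of PIWIL4, and it is present in every cell of the mouse. The labels do not say whether the mice were littermates or whether each library came from a different mouse, so the p-values measure the spread between these libraries.

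The Tudor domain is a small fold that binds methylated arginine or lysine. PIWI proteins, which carry the piRNAs that silence transposons in germ cells, have arginines near their start that are methylated by PRMT5, and several Tudor proteins bind them there. Together they gather in germ granules, the cement between mitochondria of spermatogonia and spermatocytes, the processing-body-like granules of fetal prospermatogonia and the chromatoid body of round spermatids. The first wave of spermatogenesis is under way at this age, and testes may differ in how far it has come.

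The 9 libraries held between 17964135 and 24279056 estimated counts. Every Tudor gene was well covered, with between 1451 (Tdrd3) and 25947 (Tdrd6) counts per library. Piwil4, the targeted gene, was low, with 33 to 38 counts per wild-type library, 20 to 46 per Piwil4 WT/R264W library and 18 to 31 per Piwil4 R264W/R264W library, or between 0.290 and 0.640 FPKM in all. Scaled to CPM, the Piwil4 R264W/R264W testes (1.04 to 1.39) lay below the wild-type testes (1.59 to 1.79). Groups did not overlap in 5.69% of all genes tested in this comparison. The log2 difference of Piwil4 was -0.48 ± 0.23 (SE) and did not pass the test (unadjusted p = 0.078, adjusted p = 1.0, edgeR). A gene count does not show which allele the reads came from. The progress of the first wave was summarised as a spermatid score, for which log2 CPM was averaged over 19 genes of round spermatids such as Acrv1 and Spaca1, none of which belongs to the Tudor group. The score ran from 1.43 in Piwil4 WT/R264W replicate 3 to 5.72 in wild-type replicate 1, a range of 4.29. Its mean was 3.62 ± 1.88 (SD, n = 3) in wild-type, 3.45 ± 1.80 in Piwil4 WT/R264W and 4.17 ± 1.31 in Piwil4 R264W/R264W testes, so the genotypes overlapped widely. Markers of some other cells moved along the score as well. All 7 elongating spermatid genes and 6 of 11 pachytene genes rose, while 7 of 12 leptotene and zygotene genes and 4 of 12 Sertoli cell genes fell, with 1 gene of each of the last 2 lists rising and 1 pachytene gene falling. Of 8 Leydig cell genes 2 rose, beside 18.2% of all genes called rising and 9.77% falling. No endothelial or erythroid gene was called, and 1 of 7 macrophage genes rose. Of 5 peritubular myoid genes 1 rose and 1 fell. Of 6 differentiating spermatogonia genes 1 rose and 2 fell, and of 7 undifferentiated spermatogonia genes tested 1 fell. The summed CPM went from 24.3 to 786 for the elongating spermatid list, from 180.1 to 429.8 for the Leydig list and from 2327 to 1669 for the Sertoli list between the testes of lowest and highest score, and their part in the results on single genes was not tested. Epididymis genes reached 48.3 CPM in total in Piwil4 R264W/R264W replicate 1 and at most 5.73 CPM elsewhere, with Lcn8 and Lcn9 at 0 in every library. In whole-testis RNA, fewer cells of a type and less RNA per cell cannot be told apart.

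Promoter windows are shown for a gene that rose along the score (Tdrd7), one that fell (Stk31) and one whose slope did not pass the test (Tdrd1), so that the letters can be set beside the values given further on. RefSeq windows of 300 bases, from 250 before to 50 after an annotated start on GRCm38.p6, were available for 8 of the 10 genes (14 windows). Tdrd6 and Rnf17 had no window, so the motif matches do not cover them. Capitals mark matches on either strand to the motifs searched, which were the MYB forms TAACNG and CAACNG, the E-box CACGTG, the E2F form GCGGGAA, the CRE TGACGTCA and the RFX core GTTGCCA. The windows lie at chr4:45972581-45972880 for Tdrd7, chr6:49395289-49395588 for Stk31 and chr19:56825959-56826258 for Tdrd1, all on the plus strand.
Tdrd7: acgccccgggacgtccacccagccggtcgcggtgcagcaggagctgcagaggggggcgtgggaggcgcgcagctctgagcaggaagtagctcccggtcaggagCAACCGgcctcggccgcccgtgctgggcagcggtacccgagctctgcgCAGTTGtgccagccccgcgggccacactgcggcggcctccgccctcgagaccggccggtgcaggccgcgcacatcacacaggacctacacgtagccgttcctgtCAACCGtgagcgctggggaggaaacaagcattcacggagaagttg
Stk31: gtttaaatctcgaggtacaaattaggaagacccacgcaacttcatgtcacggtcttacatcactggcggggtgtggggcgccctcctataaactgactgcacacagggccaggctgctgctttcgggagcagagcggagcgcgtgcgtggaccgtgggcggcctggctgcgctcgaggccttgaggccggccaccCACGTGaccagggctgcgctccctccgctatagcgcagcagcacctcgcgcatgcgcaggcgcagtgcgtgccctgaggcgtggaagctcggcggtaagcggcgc
Tdrd1: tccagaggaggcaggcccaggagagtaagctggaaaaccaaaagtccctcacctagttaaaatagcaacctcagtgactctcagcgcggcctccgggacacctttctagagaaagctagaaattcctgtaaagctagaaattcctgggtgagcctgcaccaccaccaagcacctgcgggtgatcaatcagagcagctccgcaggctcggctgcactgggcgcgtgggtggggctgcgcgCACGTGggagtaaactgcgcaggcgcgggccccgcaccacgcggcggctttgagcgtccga

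These 3 windows held 32, 29 and 20 CpG, against a median of 7 over all 32851 windows of the table. The Tdrd7 window printed, 1 of 3 for this gene, had 3 matches to CAACNG, a form present in 35.0% of all windows. Of the other Tdrd7 windows, the one starting at 45972047 also had 32 CpG and held no match, and the one starting at 45965085 had 4 CpG, 3 matches to CAACNG and 1 to TAACNG. The Stk31 and Tdrd1 windows printed each had 1 match to the E-box CACGTG, which is its own reverse complement and is present in 7.15% of all windows. Over all 14 windows, the E-box was also found in the single Tdrd9 window, with 2 matches, and in the second start window of Stk31 and of Tdrd1, both of which overlap the windows printed here, while the most distant Tdrd1 window had 3 CpG and no match. TAACNG, present in 23.3% of all windows, was found in windows of Tdrd5, Tdrkh, Tdrd7 and Tdrd12, and CAACNG in windows of Tdrd5, Tdrd7 and Tdrd12. The E2F form, present in 4.60% of all windows, was found in Tdrd5, and the CRE (1.79% of all windows) and the RFX core (4.38%) in none of the 14. A match is a description of the letters, and which start the testis uses was not analysed here.

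All 10 genes were expressed in every testis, at no less than 25.45 FPKM. On the FPKM scale, which is per length and so allows genes to be compared, the mean level over the 9 testes was 138 ± 16.9 (SD) for Tdrd6, a scaffold of the chromatoid body. It was 107 ± 9.46 FPKM for Tdrd7, a chromatoid body protein with LOTUS as well as Tudor domains. Tdrd1, which binds PIWIL2 in the cement between mitochondria, had a level of 92.9 ± 8.39 FPKM. Stk31, a kinase-like Tudor protein, had 82.9 ± 12.4 FPKM, and Tdrd5, a LOTUS domain protein needed for pachytene piRNAs, had 77.6 ± 7.44 FPKM. Rnf17, which joins a RING finger to Tudor domains, had 60.1 ± 3.55 FPKM, and Tdrd9, a helicase that works with PIWIL4 in fetal germ cells, had 59.5 ± 4.29 FPKM. The lowest levels belonged to Tdrkh (45.7 ± 4.58 FPKM), which is anchored to mitochondria and takes part in trimming piRNA ends, to Tdrd12 (43.9 ± 2.42 FPKM), a helicase-like partner in piRNA production, and to Tdrd3 (28.1 ± 1.60 FPKM), which many tissues use and which is known from transcription and from RNA topoisomerase complexes. The levels of Tdrd6 over Tdrd7, Tdrd5 over Rnf17, Tdrd9 over Tdrkh and Tdrd12 over Tdrd3 kept their order in all 9 testes. The order of the neighbours Rnf17 and Tdrd9 varied between testes, with a mean difference of 0.573 ± 4.66 FPKM (SD) and Rnf17 higher in 5 of 9. So did that of Tdrkh and Tdrd12 (1.83 ± 4.03 FPKM, 5 of 9), Stk31 and Tdrd5 (5.37 ± 7.13 FPKM, 6 of 9) and Tdrd7 and Tdrd1 (14.4 ± 17.1 FPKM, 7 of 9). By ratio of FPKM, Tdrd7 was below Tdrd1 in Piwil4 WT/R264W replicate 3 (0.904) and wild-type replicate 3 (0.877), the testes of lowest score. In the other testes the ratio lay between 1.07 and 1.44. These differences in level were not tested. Tdrd1 was above Stk31 in 8 of 9 testes, by 9.97 ± 7.47 FPKM.

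Along the spermatid score the Tudor genes separated. Tdrd6 and Tdrd7 rose, Stk31 fell, and the slopes of the other 7 did not pass the test. In CPM (counts scaled to library size with TMM factors), the coefficient of variation over the 9 testes was 15.8% for Tdrd6, 12.4% for Tdrd7, 11.3% for Stk31 and 8.30% for Tdrkh, and between 4.61% and 6.90% for the other 6 genes. Of the 10 slopes, 3 (2 rising and 1 falling) had an adjusted p under 0.05 and 4 an unadjusted p under 0.05, in an edgeR fit of all 9 libraries with genotype and score and Benjamini-Hochberg adjustment over 15771 genes. In the same fit 28.0% of all genes tested were called, 18.2% rising and 9.77% falling, so the number of Tudor genes called was near the background. None of the 10 changed by more than 2-fold over the range of the score. The background count rested in part on single libraries. It was 4409 genes (28.0%) with all 9 libraries and 2355 (14.8%) without wild-type replicate 1. Without wild-type replicate 3 it was 2684 (16.7%), and without Piwil4 R264W/R264W replicate 3 it was 2769 (17.3%). In each of these 3 fits with 1 library left out, 3 of 10 Tudor genes were called.

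**Figure D1:**
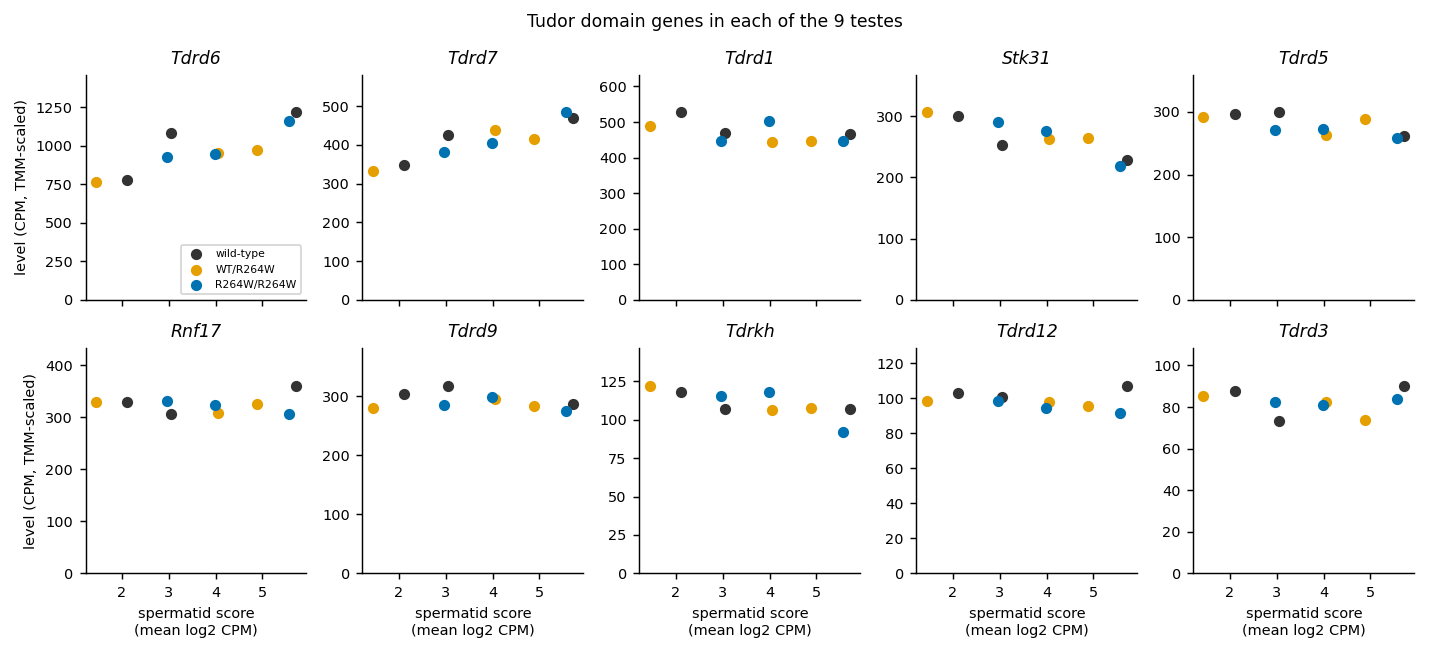
Level of each Tudor gene (CPM, TMM-scaled, linear axis from 0) in each of the 9 testes against the spermatid score (log2 CPM averaged over 19 genes of round spermatids), with 1 panel per gene and 1 point per testis, black for wild-type, orange for Piwil4 WT/R264W and blue for Piwil4 R264W/R264W. Tdrd6 runs from 763 to 1219.6 CPM and Tdrd7 from 333 to 485 CPM as the score rises, Stk31 runs from 307 down to 219 CPM, and the other genes stay in narrower ranges.

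In order of rising score, Tdrd6 had 763, 778, 929.9, 1080.5, 948, 956, 970.0, 1159.6 and 1219.6 CPM in the 9 testes. The lowest 2 were Piwil4 WT/R264W replicate 3 and wild-type replicate 3, the highest 2 were wild-type replicate 1 and Piwil4 R264W/R264W replicate 3, and wild-type replicate 2 stood above its neighbours in the middle of the score. The slope was 0.12 ± 0.03 (SE) log2 units per unit of score (adjusted p = 0.0024, edgeR), a fitted difference of 0.54 ± 0.11 log2 over the range of the score. Tdrd7 had 333, 349, 382, 427, 406, 438, 416, 485 and 469.6 CPM in the same order. It was lowest and highest in the same pairs of testes as Tdrd6, and its slope was 0.11 ± 0.02 log2 per unit (adjusted p = 0.0029), or 0.46 ± 0.09 log2 over the range.

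Stk31 had 307, 300.3, 291, 253, 276, 263, 264.3, 219 and 229 CPM in order of rising score. Its lowest 2 testes were those in which Tdrd6 and Tdrd7 were highest, and its highest 2 those in which they were lowest. The slope was -0.10 ± 0.02 log2 per unit (adjusted p = 0.0041), a fitted difference of -0.44 ± 0.10 log2 over the range. The slopes of Tdrd6, Tdrd7 and Stk31 passed the test in all 19 alternative analyses, in which the score-based slopes lay between 0.094 and 0.135 for Tdrd6, between 0.074 and 0.121 for Tdrd7 and between -0.138 and -0.087 for Stk31 where the unit was the spermatid score.

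Within a testis, the ratio of Tdrd6 to Stk31 in FPKM was 1.15 in the testis of lowest score and 2.47 in that of highest score, with values of 1.19, 1.47, 1.95, 1.57, 1.67, 1.67 and 2.44 between them. The ratio of Tdrd7 to Stk31 was 0.922 in the testis of lowest score and 1.74 in that of highest score, and reached 1.88 in Piwil4 R264W/R264W replicate 3. These ratios do not depend on how the libraries are scaled. Tdrd6 and Tdrd7 kept close to each other, with a ratio between 1.19 and 1.41 in all 9 testes. Of the summed FPKM of the 10 genes, which lay between 699 and 762, Tdrd6 and Tdrd7 together took 27.6% in the testis of lowest score, 38.0% in that of highest score and 39.4% in Piwil4 R264W/R264W replicate 3. These ratios and shares are descriptions of the same libraries as the slopes and add no separate evidence.

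**Figure D2:**
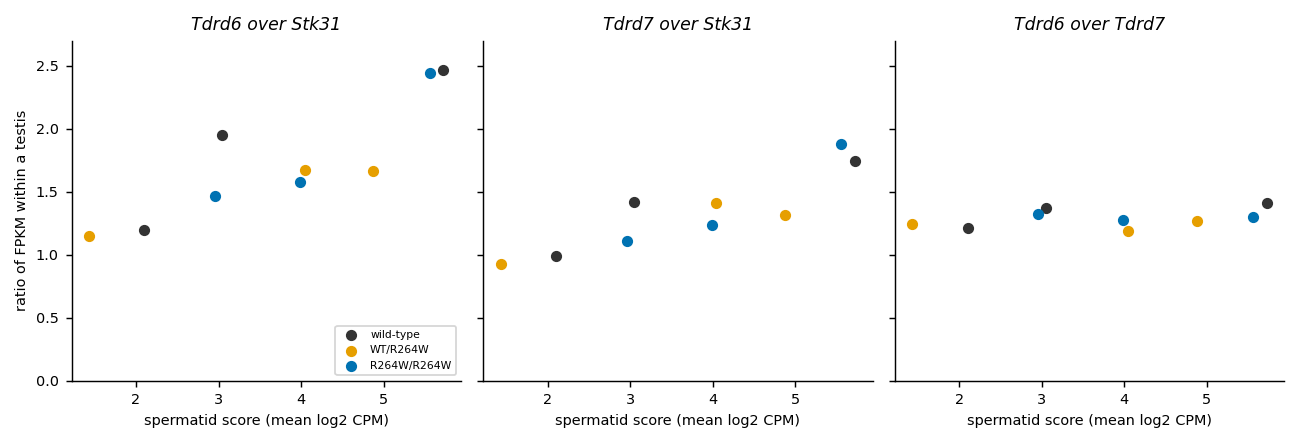
Ratio of FPKM values within each of the 9 testes (linear axis from 0) against the spermatid score (mean log2 CPM) for Tdrd6 over Stk31, Tdrd7 over Stk31 and Tdrd6 over Tdrd7, with 1 point per testis coloured by genotype. The ratio to Stk31 runs from 1.15 to 2.47 for Tdrd6 and from 0.922 to 1.88 for Tdrd7, while Tdrd6 over Tdrd7 stays between 1.19 and 1.41.

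Tdrkh had 122, 118, 115, 107, 118, 106, 108, 91.7 and 107 CPM in order of rising score. Its slope was -0.07 ± 0.02 log2 per unit, with an unadjusted p of 0.018 that did not pass the adjustment (adjusted p = 0.061, edgeR). Tdrkh overlaps Oaz3, a gene of haploid germ cells on the opposite strand, whose level went from 3.24 to 94.3 CPM with a slope of 1.13 ± 0.04 log2 per unit (adjusted p = 1.0e-10). The Tdrkh counts were not whole numbers in 8 of 9 libraries, whereas those of the other 9 genes were whole in every library. Over all genes, 89.2% of the deposited counts were whole. Whether counting used the strand is not given in the sources used here, and whether Tdrkh and Oaz3 shared reads was not tested. Tdrd9 also overlaps a gene on the opposite strand, Rd3l, but this gene had at most 0.047 CPM. Tdrd3, Tdrd5 and Stk31 overlap opposite-strand genes too, and Tdrkh overlaps another. These were not among the genes with deposited counts, so their levels could not be checked.

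The slopes of the remaining 6 genes did not pass the test. Tdrd1 lay between 445 and 528 CPM (slope -0.04 ± 0.02 log2 per unit, adjusted p = 0.19) and Tdrd5 between 258 and 299.8 CPM (-0.04 ± 0.02, adjusted p = 0.16). Tdrd9 lay between 274 and 318 CPM and Tdrd12 between 91.4 and 107 CPM, with slopes of -0.02 ± 0.02 and -0.01 ± 0.02 log2 per unit. Tdrd3 lay between 73.1 and 90.2 CPM and Rnf17 between 306 and 361 CPM, with slopes of -0.0068 ± 0.0270 and 0.0028 ± 0.0219 log2 per unit, and both signs flipped in other analyses. The 95% intervals of these last 4 slopes ran from -0.065 to 0.051 log2 per unit, so slopes of the size of Tdrd6 lay outside them.

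The scaling of the libraries shifted all genes together. With TMM the median slope of all genes was -0.015 log2 per unit, which is -0.062 log2 over the range of the score, and with library size only it was -0.047, or -0.20 over the range. Of the genes called, 65.0% rose with TMM (2868 rising and 1541 falling) but 40.3% with library size only (2345 rising and 3470 falling) and 44.0% with limma on log2(FPKM + 0.1). With library size only Tdrd1, Tdrd5 and Tdrkh were called as well, all falling, which brought the count of Tudor genes to 6. The share of all genes called was then 36.9%, against 28.0% with TMM. Relative to the median of all genes, the slope of Tdrd6 was 0.14 log2 per unit under each of these 2 scalings, that of Tdrd7 0.12 and that of Stk31 -0.09.

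Other genes of the piRNA pathway moved in both directions as well. Of 18 partner genes, 2 rose and 4 fell along the score, with a median slope of -0.04 log2 per unit. Of all genes 28.0% were called (18.2% rising and 9.77% falling), so the total of partners called was near the background. More partners fell than rose, unlike all genes in this fit, and this split was not tested. Gtsf1, a small zinc finger protein that binds PIWI proteins, went from 92.5 CPM in the testis of lowest score to 157 CPM in that of highest score (slope 0.15 ± 0.03 log2 per unit, adjusted p = 0.00079). Mael, another germ granule protein, had a slope of 0.09 ± 0.02 (adjusted p = 0.018). The falling genes were Fkbp6, a cochaperone of piRNA production (-0.09 ± 0.02, adjusted p = 0.011), Mybl1, the transcription factor of pachytene piRNA clusters (-0.08 ± 0.02, adjusted p = 0.025), Mov10l1, a helicase that starts piRNA processing (-0.08 ± 0.02, adjusted p = 0.020), and Piwil2, the PIWI partner of Tdrd1 (-0.07 ± 0.02, adjusted p = 0.037). Gtsf1 was called in all 19 alternatives, Fkbp6 and Mov10l1 in 16 of 19, Mybl1 in 15 of 19, Mael in 11 of 19 and Piwil2 in 10 of 19. Ddx4, the helicase by which germ granules are often recognised, lay between 764 and 937 CPM and its slope of 0.04 ± 0.02 did not pass the test (adjusted p = 0.15), nor did that of Piwil4 (-0.04 ± 0.09, adjusted p = 0.77).

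**Figure D3:**
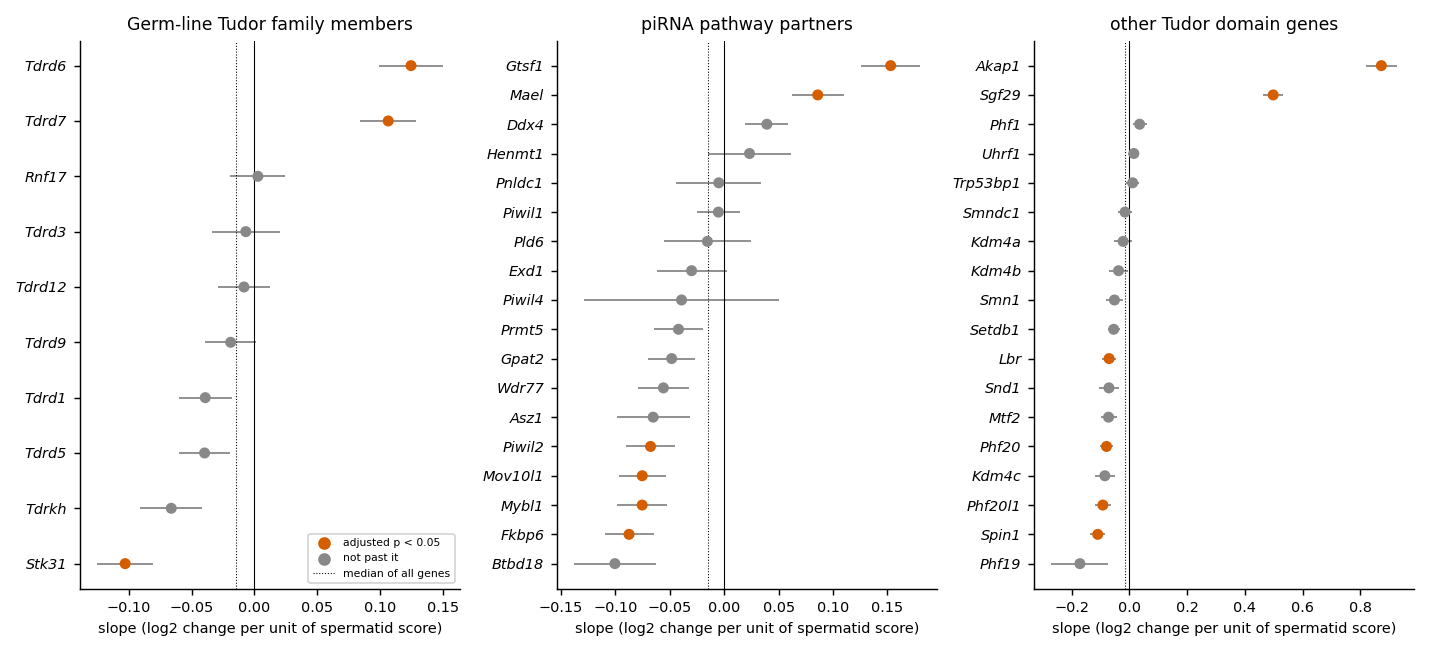
Slope on the spermatid score (log2 change per unit of score, point, with its SE as the bar) of the 10 germ-line Tudor genes, 18 piRNA pathway partners and 18 other Tudor domain genes, on axes that differ between panels. Orange points had an adjusted p under 0.05 (edgeR), grey points did not, and the dotted line is the median of all genes (-0.015); Tdrd6 and Tdrd7 lie at 0.12 and 0.11, Stk31 at -0.10 and Akap1 at 0.87.

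The steepest slopes among the Tudor domain genes examined lay outside the germ-line group. Of 18 such genes, 2 rose and 4 fell along the score, with a median slope of -0.05 log2 per unit. The total called was again near the background of 28.0%. More of these genes fell than rose, unlike all genes in this fit, and this split was not tested. Akap1, which anchors protein kinase A to mitochondria, went from 14.6 to 152 CPM between the testes of lowest and highest score (slope 0.87 ± 0.05, adjusted p = 2.2e-08), and Sgf29, a reader of methylated histone tails in the SAGA complex, from 14.8 to 60.4 CPM (0.50 ± 0.03, adjusted p = 6.1e-08). Spin1, Phf20l1, Phf20 and Lbr fell, with slopes of -0.11, -0.09, -0.08 and -0.07. Akap1, Sgf29 and Spin1 were called in all 19 alternatives, Phf20 in 16, Phf20l1 in 15 and Lbr in 9.

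Between genotypes no Tudor gene passed the test. In each of the 3 comparisons of 6 libraries 0 of 10 had an adjusted p under 0.05, 0 of 10 had an unadjusted p under 0.05 (edgeR), and DESeq2 and limma called 0 of the 10 as well. The background in edgeR was also 0.0%, since none of 15543, 15413 and 15463 genes was called, with 196, 171 and 343 genes at an unadjusted p under 0.05. Over the whole table DESeq2 called 1, 0 and 5 genes in the same order and limma 0. Tdrd6 had 1026.0 ± 226 CPM (SD, n = 3) in wild-type, 896 ± 116 in Piwil4 WT/R264W and 1012.6 ± 128 in Piwil4 R264W/R264W testes. Tdrd7 had 415 ± 61.1, 396 ± 55.5 and 424 ± 53.8 CPM and Stk31 261 ± 36.3, 278 ± 24.8 and 262 ± 37.8 CPM in the same order, so for each gene the genotypes overlapped. In Piwil4 R264W/R264W against wild-type testes the log2 fold changes of the 10 genes lay between -0.13 (Tdrd12) and 0.03 (Tdrd7), with 95% intervals that reached from -0.46 to 0.41. They lay between -0.20 (Tdrd6) and 0.09 (Stk31) in Piwil4 WT/R264W against wild-type testes, with bounds of -0.63 and 0.40, and between -0.09 (Stk31) and 0.17 (Tdrd6) in Piwil4 R264W/R264W against Piwil4 WT/R264W testes, with bounds of -0.39 and 0.48. A 2-fold change of any of the 10 genes lay outside its interval in each of the 3 comparisons.

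With all 9 libraries and the score in the model, 0 of 10 Tudor genes were called in each comparison. At equal score the log2 fold changes lay between -0.13 (Tdrd12) and 0.06 (Stk31) in Piwil4 R264W/R264W against wild-type testes, with bounds of -0.28 and 0.22. They lay between -0.16 (Tdrd6) and 0.08 (Stk31) in Piwil4 WT/R264W against wild-type testes, with bounds of -0.34 and 0.25, and between -0.05 (Tdrd5) and 0.08 (Tdrd6) in Piwil4 R264W/R264W against Piwil4 WT/R264W testes, with bounds of -0.20 and 0.27. In Piwil4 R264W/R264W against wild-type testes the SE of Tdrd6 was 0.181 with 6 libraries, 0.173 with 9 libraries without the score and 0.0853 with 9 libraries and the score. For Stk31 the SE was 0.149, 0.140 and 0.0759 in the same order, and for Tdrd12 0.0675, 0.0606 and 0.0705. Of the 30 intervals of the 10 genes, 29 were narrower than with 6 libraries, and that of Tdrd3 in Piwil4 R264W/R264W against Piwil4 WT/R264W testes was wider. The background in edgeR was 0.0% of 15771 genes in each of these 3 comparisons, with 429, 619 and 523 genes at an unadjusted p under 0.05. Over the whole table DESeq2 called 17, 4 and 11 genes and edgeR with the replicate number as a block 0, 3 and 2 genes in the same order, and edgeR without a filter on low counts 0, 2 and 4, none of them a Tudor gene. The score was measured in the same testes, so these values describe differences at a given level of spermatid RNA.

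**Figure D4:**
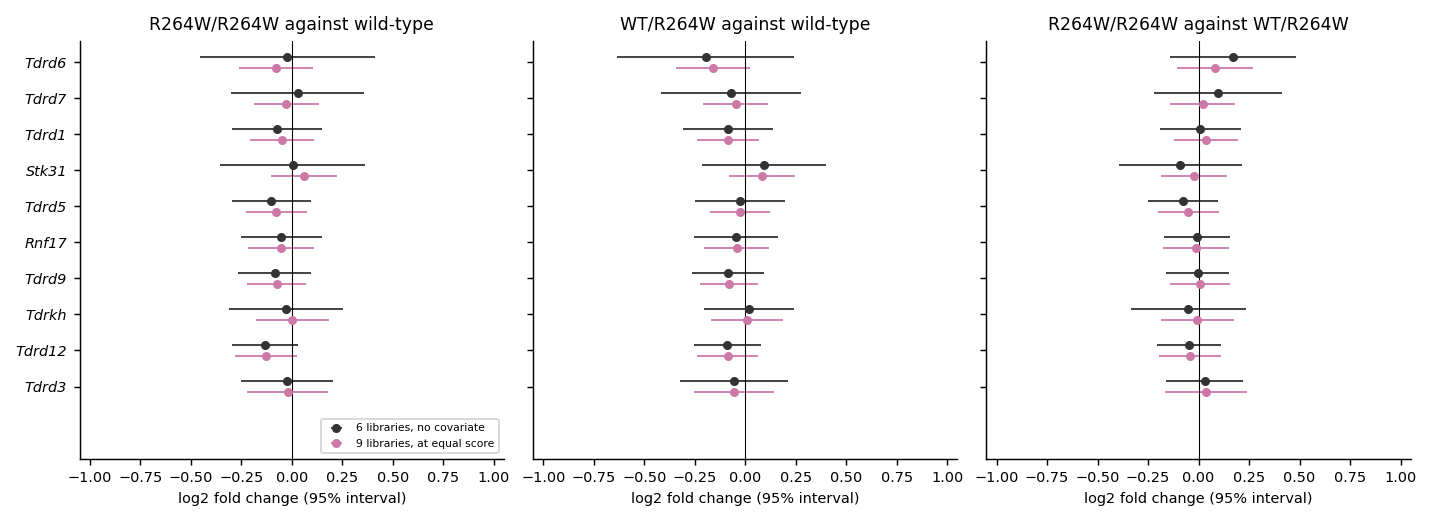
Log2 fold change of each Tudor gene between genotypes (point) with its 95% interval (bar), from the 6 libraries of a comparison without a covariate (black) and from all 9 libraries at equal spermatid score (pink). Every interval spans 0, and the widest, for Tdrd6 in Piwil4 WT/R264W against wild-type testes, reaches from -0.63 to 0.24.

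Tdrd12 was the only gene of the 10 whose TMM-scaled CPM did not overlap between groups in some comparison. It had 107, 101 and 103 CPM in wild-type replicates 1, 2 and 3, against 95.9, 98.1 and 98.6 CPM in Piwil4 WT/R264W and 98.5, 94.3 and 91.4 CPM in Piwil4 R264W/R264W testes. On this TMM scale all 3 wild-type testes were above all 6 mutant testes, and both comparisons rest on the same 3 wild-type libraries. On other scales the groups overlapped. In CPM by library size only, Tdrd12 lay between 99.2 and 106 in wild-type, between 96.2 and 104 in Piwil4 WT/R264W and between 85.9 and 100.2 in Piwil4 R264W/R264W testes. The FPKM ranges of the 3 genotypes in this order were 43.1 to 47.5, 42.8 to 46.3 and 39.3 to 44.8. The log2 fold change against wild-type was -0.13 ± 0.07 (SE) for Piwil4 R264W/R264W (unadjusted p = 0.091, adjusted p = 1.0, edgeR) and -0.09 ± 0.07 for Piwil4 WT/R264W testes (unadjusted p = 0.24). The exact two-sided permutation test gave p = 0.1 in both, which is the smallest p that 3 against 3 allows. Groups did not overlap in 5.69% of all genes tested in Piwil4 R264W/R264W against wild-type testes, in 5.5% in Piwil4 WT/R264W against wild-type testes and in 7.24% in Piwil4 R264W/R264W against Piwil4 WT/R264W testes. With 1 of 10 Tudor genes in the first 2 comparisons and 0 of 10 in the last, the group stood near this background.

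Of the 18 piRNA partners, 0 had an adjusted p under 0.05 in any of the 6 comparisons between genotypes, and at most 1 in any comparison had an unadjusted p under 0.05. For Piwil4 R264W/R264W against wild-type testes their median log2 fold change was -0.06, beside -0.04 for the 10 Tudor genes.

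The genes whose log2 CPM followed each Tudor gene most closely over the 9 testes were found among 9933 genes with a mean of at least 10 CPM, by Pearson's r. For Tdrd6 these were Cep126 (r = 0.987) and Cep164 (0.986), and for Tdrd7 Ggn (0.993) and Fmnl1 (0.993). For Stk31 they were Hfe (0.989) and Bnip2 (0.986), and for Tdrkh Rnf169 (0.974) and S100pbp (0.973). The closest genes to Tdrd5 were Zbtb20 (0.979) and Rbbp5 (0.975), to Tdrd1 Mtx3 (0.938) and Lin52 (0.926), and to Tdrd3 Zfp639 (0.946) and Etfbkmt (0.945). Tdrd9 had the lowest values, with Cdan1 (0.859) and Mettl17 (0.857), beside Atp10d (0.909) and Zkscan2 (0.888) for Tdrd12 and D10Wsu102e (0.944) and Papola (0.930) for Rnf17. All values share the same 9 libraries, and each is the highest or next highest of 9933 values, so they are descriptions with no test.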

How the data were processed

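RNA of 9 whole testes (3 wild-type, 3 Piwil4 WT/R264W, 3 Piwil4 R264W/R264W) was sequenced by the authors from mRNA libraries. Per the labels, reads were filtered with fastp (0.18.0) and assembled with StringTie (1.3.1); the submitters' notes name mm39 and DESeq2, and the aligner and counting tool are not given in the sources used here. The authors deposited, for each of 22337 genes and each testis, FPKM (fragments per length and depth) and an estimated count, which is unscaled. Whole numbers made up 89.2% of the deposited estimated counts, and all were rounded.

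In R (4.3.3), edgeR (4.0.16) was run with filterByExpr, TMM and the two-sided quasi-likelihood test, on the 6 libraries of 2 genotypes at a time, and on all 9 with genotype and the spermatid score (prior count 1). Calls had an adjusted p under 0.05 (Benjamini-Hochberg over all genes tested). SEs come from the F statistic. For each Tudor gene an exact permutation test was run with scipy (1.17.1). Alternatives used DESeq2 (1.42.0), limma (3.58.1) on log2(FPKM + 0.1) and log2(FPKM + 1) where mean FPKM was 0.5 or more, other scalings and filters, a replicate block, a score of 11 pachytene genes, no genotype term, all 9 libraries without a covariate, and each library left out. The steps were run on simulated counts with known changes. Recovery was required there only for genotype differences and slopes larger than those estimated for the Tudor genes. Floors for a count of 0 were not needed, since every Tudor gene was detected in every library, and the SEs cover the spread between libraries as well as counting error.

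The Tudor genes and all gene lists were chosen with earlier results of these data known. Named genes are the 10 Tudor genes, the 3 steepest called genes in each direction of the partner and other Tudor lists, Piwil4, Ddx4, Mybl1 and the 2 genes closest to each Tudor gene. Piwil2, Lbr, Oaz3, Rd3l, Lcn8 and Lcn9 lie outside it and were picked with values in view. Of the 12 pachytene genes listed, 11 were in the table. RefSeq promoter windows were matched by symbol. No gene coordinates of the counting are printed, since the reference at hand is of another build.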

Additional observations from a re-analysis of the deposited data

How the results depend on the processing

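In the 6 comparisons between genotypes, 0 of 10 Tudor genes were called under every alternative run (15 for each comparison of 6 libraries, 18 for each at equal score). Along the spermatid score 3 of 10 were called; with library size only 6 were, with limma on log2(FPKM + 0.1), limma on log2(FPKM + 1) or the pachytene score 5 were, without the genotype term 4 were, and without each replicate in turn between 3 and 5 were, the 5 without Piwil4 WT/R264W replicate 1. The additional calls were among Tdrd1, Tdrd5 and Tdrkh, all falling. Genes called over the whole table numbered between 2355 (without wild-type replicate 1) and 6309 (without Piwil4 WT/R264W replicate 1), against 4409. The share of all genes called rose in these alternatives too, from 28.0% to 36.9% with library size only. It was 34.8% and 34.6% with limma (pseudocounts 0.1 and 1) and 32.2% with the pachytene score. Without the genotype term it was 32.9%, and without Piwil4 WT/R264W replicate 1 it was 39.5%.

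Signs that flipped belonged to values that did not pass the test. In Piwil4 R264W/R264W against wild-type testes, limma with the pseudocounts 0.1 and 1 gave 0.0024 and 0.0023 for Tdrd3, 0.0031 and 0.0030 for Tdrd6, and 0.0791 and 0.0777 for Tdrkh. With 1 replicate left out at a time, the log2 fold change lay between -0.097 and 0.029 for Tdrd3, -0.18 and 0.12 for Tdrd6, -0.075 and 0.12 for Tdrd7, -0.097 and 0.080 for Tdrkh, -0.094 and 0.0057 for Rnf17, and -0.085 and 0.13 for Stk31. It lay between -0.17 and 0.025 for Stk31 in Piwil4 R264W/R264W against Piwil4 WT/R264W testes, and between -0.092 and 0.024 for Tdrd5 there at equal score. The slope of Tdrd3 was 0.0017 with the replicate block and 0.0130 with the pachytene score, and between -0.043 and 0.0084 with 1 replicate left out. That of Rnf17 was -0.0296 with library size only, -0.0310 and -0.0306 with limma, -0.0099 with the replicate block, -0.0011 with the pachytene score and between -0.030 and 0.014 with 1 replicate left out. The cause was not tested.

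The labels do not say whether libraries of the same replicate number were paired. Deviations of same-numbered libraries from their group means correlated between -0.79 and 0.83, above 0.1 in 3 of 9 pairs. Those of different-numbered libraries correlated between -0.84 and 0.81, above 0.1 in 10 of 18 pairs. The libraries also differed in spermatid score, so these values cannot decide whether the samples were paired. With the replicate number as a block, 3 Tudor genes were called along the score and 0 between genotypes, and 3603 of 15771 genes were called along the score.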
